A study of Mus musculus with 10 samples.

Results

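Pla2g7, Cd207, Adam22, Mefv, Ms4a8a and Cxcl13 are 6 of the 19764 genes in a table of liver read counts. They were taken by name and were chosen by their lower counts in this same comparison, as genes linked to macrophages in mice made to lose the glucocorticoid receptor in myeloid cells. The GRMAC group held 5 liver libraries from female mice with floxed alleles of the receptor gene and 1 copy of LysM-Cre, a Cre recombinase expressed in macrophages, monocytes and neutrophils. The GRflox group held 5 liver libraries from female littermates with the floxed alleles and no Cre. All mice were fasted for 8 h from ZT12, the start of the active phase, and ages are not given in the sources used here. The controls carried no Cre, so what Cre does by its own presence and what the missing receptor does cannot be told apart. The question of the comparison is what fasted liver RNA looks like when myeloid cells lack the receptor.

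The glucocorticoid receptor is a transcription factor that is activated by corticosterone in mice, enters the nucleus and binds DNA either as a pair at a palindromic element or with other factors. In macrophages it turns down many inflammatory genes and turns up others, of which Cd163, the haemoglobin scavenger receptor, is the best known. Kupffer cells are the resident macrophages of the liver and line its sinusoids. They are a small part of the tissue, so their transcripts appear at low levels in RNA of whole liver.

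The libraries held 23258884 to 26116916 counts in GRMAC and 25697931 to 27692528 in GRflox (n = 5 each), and the totals differed between the genotypes (two-sided exact permutation test, p = 0.0159). Levels are given as CPM, counts divided by the library size after TMM scaling, so a difference in depth is taken out of them. A count of 3 in a library is worth 0.111 to 0.129 CPM. Nr3c1, the receptor gene itself, lay between 74.7 and 94.0 CPM in GRMAC and between 63.8 and 81.2 CPM in GRflox. That level does not check the deletion, because a count per gene cannot show a missing exon and hepatocytes, in which LysM-Cre is not active, give most of the RNA. Cd163 lay between 2.43 and 3.77 CPM in GRMAC and between 21.6 and 40.3 CPM in GRflox.

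Pla2g7 encodes a secreted phospholipase that breaks down platelet-activating factor and oxidised phospholipids, and macrophages are a main source of it. The gene lies on the forward strand of mm10 chromosome 17 from 43568451 to 43612201 (NM_013737, 12 exons). In the GRMAC livers it was at 0.905, 0.616, 0.556, 1.23 and 0.740 CPM (libraries 1 to 5), and in the GRflox livers at 3.79, 3.57, 2.97, 3.83 and 4.58 CPM. Every GRMAC library lay well below every GRflox library, with 1.74 CPM between the highest of the first and the lowest of the second. The mean was 0.809 ± 0.270 CPM in GRMAC and 3.75 ± 0.578 CPM in GRflox (SD, n = 5), a log2 fold change of −2.20 ± 0.21 (SE).

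Cxcl13 encodes a chemokine that draws B cells through the receptor CXCR5 and organises lymphoid follicles. It lies on the forward strand of chromosome 5 from 95956939 to 95961068 (NM_018866, 4 exons). The GRMAC livers held 1.03, 0.924, 0.476, 1.38 and 1.07 CPM, and the GRflox livers 3.12, 2.90, 2.78, 8.79 and 2.58 CPM. The groups did not overlap, and GRflox 4 stood far above the other GRflox libraries. The log2 fold change was −2.04 ± 0.41 with all libraries and −1.54 without GRflox 4. Without that library the GRflox mean was 2.84 ± 0.225 CPM (SD, n = 4), against 4.03 ± 2.66 CPM with it, while the GRMAC mean was 0.977 ± 0.328 CPM (SD, n = 5).

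Cd207 encodes langerin, a C-type lectin that binds mannose-rich glycans and forms Birbeck granules in Langerhans cells of the skin, and it is also used as a marker of mouse Kupffer cells. It lies on the reverse strand of chromosome 6 from 83671207 to 83677857 (NM_144943, 6 exons). In the GRMAC livers it was at 0.560, 2.04, 1.03, 1.27 and 0.987 CPM, and in the GRflox livers at 6.87, 5.75, 3.77, 3.27 and 2.66 CPM. It varied widely within each group, with a coefficient of variation of 46.3% in GRMAC and 39.8% in GRflox. GRMAC 2, the highest of its group, lay only 0.618 CPM below GRflox 5, the lowest of the other. Means were 1.18 ± 0.546 CPM in GRMAC and 4.46 ± 1.78 CPM in GRflox (SD, n = 5), and the log2 fold change was −1.91 ± 0.34.

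Ms4a8a encodes a membrane protein of the MS4A family, whose members cross the membrane several times. In mouse macrophages its expression is known to be induced by glucocorticoid given with cytokines of alternative activation. It lies on the reverse strand of chromosome 19 from 11067471 to 11081103 (NM_022430, 7 exons). The GRMAC livers held 1.21, 1.08, 1.03, 1.15 and 0.905 CPM, and the GRflox livers 2.61, 2.33, 1.52, 1.80 and 2.55 CPM. The GRMAC values were the most even of any of the 6 genes, with a coefficient of variation of 10.8%, against 22.2% in GRflox. The mean level in GRMAC, 1.07 ± 0.116 CPM, was 49.7% of that in GRflox, 2.16 ± 0.480 CPM (SD, n = 5), and the log2 fold change was −1.01 ± 0.19.

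Adam22 encodes a member of the ADAM family without protease activity, best known as the receptor of LGI1 at synapses of the brain. It is a long gene on the reverse strand of chromosome 5, from 8072347 to 8368160 (NM_001310439, 30 exons), and 4 short noncoding, pseudogene or unclassified entries of GENCODE lie within it. It was at 2.33, 3.43, 2.46, 0.960 and 2.47 CPM in the GRMAC livers, and at 6.48, 5.19, 7.27, 4.21 and 7.94 CPM in the GRflox livers. The groups did not overlap, and number 4 was the lowest library of both genotypes. Means were 2.33 ± 0.882 CPM in GRMAC and 6.21 ± 1.52 CPM in GRflox (SD, n = 5), with a log2 fold change of −1.42 ± 0.27.

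Mefv encodes pyrin, a cytosolic sensor that assembles an inflammasome when bacterial toxins switch off RhoA, and it is the gene of familial Mediterranean fever in humans. It lies on the reverse strand of chromosome 16 from 3707215 to 3718124 (NM_001161791, 9 exons). It was the lowest of the 6 genes, at 0.517, 0.308, 0.357, 0.538 and 0.370 CPM in the GRMAC livers and 1.17, 0.940, 0.837, 0.788 and 1.11 CPM in the GRflox livers. These are 52 counts over all GRMAC libraries and 128 over all GRflox libraries. Only 2 of 5 GRMAC libraries, against 5 of 5 GRflox libraries, reached the level that the filter on low counts asks for, so this gene entered the test through the group in which it was high. The other 5 genes reached that level in every library. Means were 0.418 ± 0.103 CPM in GRMAC and 0.969 ± 0.166 CPM in GRflox (SD, n = 5), and the log2 fold change was −1.21 ± 0.24.

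**Figure D1:**
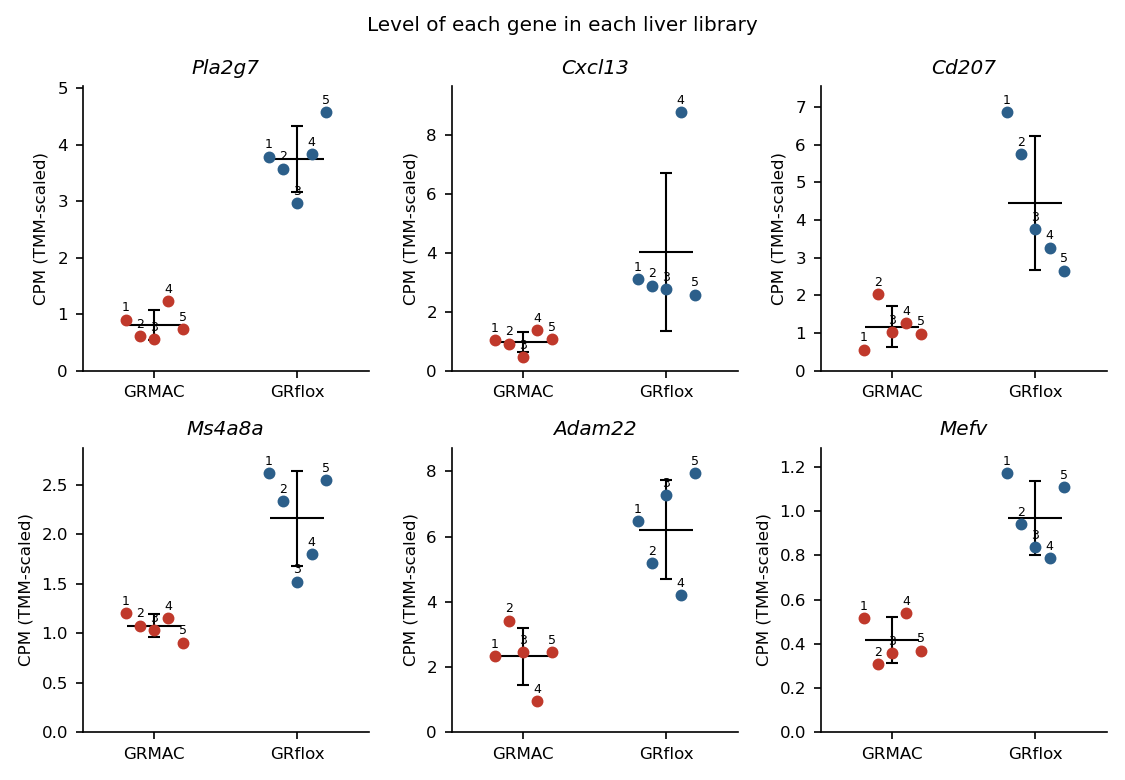
Level of each of the 6 genes in CPM (vertical axes, from 0) in the 5 GRMAC and the 5 GRflox libraries; points are libraries with their number, the wide mark is the mean and bars are the SD. In every panel all GRMAC points lie below all GRflox points, and Cxcl13 in GRflox 4 (8.79 CPM) stands alone.

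The genes were chosen for being lower in this comparison, so these differences are a description and carry no test. In the fit across all 12558 genes tested, 1 of the 6 (Pla2g7) passed edgeR's quasi-likelihood test at an adjusted p under 0.05, where 0.0557% of all genes passed as lower, 0.119% as higher and 0.175% in either direction. All 6 had GRMAC libraries that lay wholly below the GRflox libraries, as did 2.01% of all genes tested, while 2.05% had GRMAC libraries wholly above. All 6 were lower past that threshold in the authors' deposited table, as were 1.49% of the genes given an adjusted p there, with 1.84% higher and 3.33% in either direction. DESeq2 run again on the counts called all 6 as well, among 1.5% of genes lower and 3.35% in either direction. With the library number as a block 4 of the 6 passed (Pla2g7, Cd207, Adam22 and Cxcl13), where 0.295% of all genes passed as lower and 0.645% in either direction. The choice of the genes fixes these counts in advance, and nothing is read from them.

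**Figure D2:**
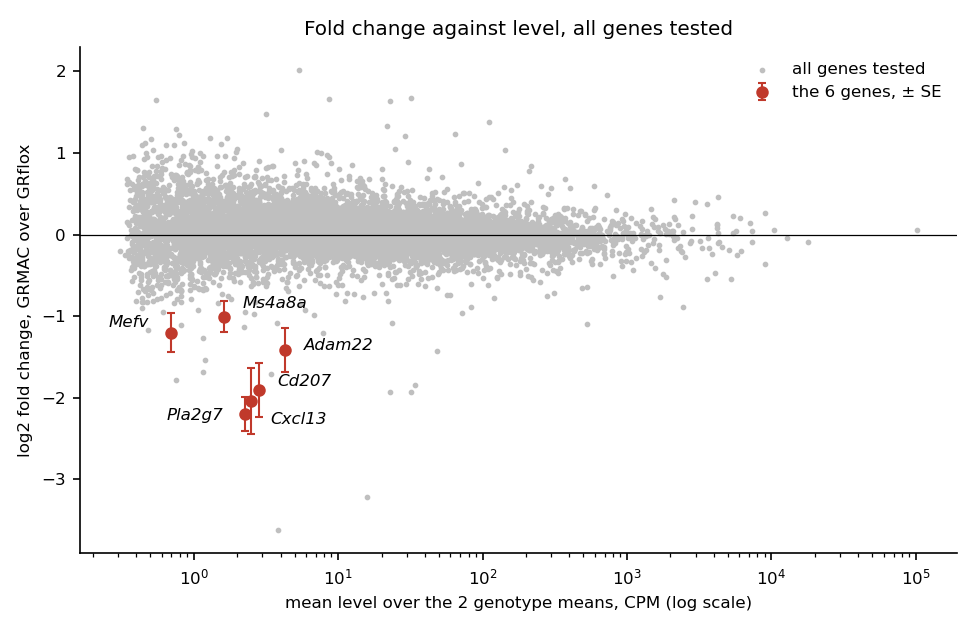
Log2 fold change of GRMAC over GRflox (vertical axis) against mean level in CPM (horizontal, log scale) for all 12558 genes tested (grey) and the 6 genes (red, bars are the SE). The 6 genes lie between −1.01 and −2.20 at mean levels of a few CPM or less.

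Per kilobase of the annotated transcript, the mean levels in GRMAC livers were 0.994 ± 0.108 CPM per kb for Ms4a8a, 0.850 ± 0.285 for Cxcl13, 0.774 ± 0.358 for Cd207, 0.386 ± 0.129 for Pla2g7, 0.254 ± 0.0963 for Adam22 and 0.162 ± 0.0398 for Mefv (SD, n = 5). In GRflox livers the order was different, with 3.51 ± 2.32 CPM per kb for Cxcl13, 2.93 ± 1.17 for Cd207, 2.001 ± 0.444 for Ms4a8a, 1.79 ± 0.276 for Pla2g7, 0.678 ± 0.166 for Adam22 and 0.375 ± 0.0644 for Mefv. In GRMAC the mean ± SD of each gene overlapped that of the next in the order. In GRflox this held from Cxcl13 down to Pla2g7, while Pla2g7 and Adam22, and Adam22 and Mefv, were apart. Each gene body is longer than its transcript, with 295814 against 9161 bases for Adam22 and 6651 against 1522 bases for Cd207. Whether introns were counted is not stated. The level per kilobase of any of the 6 genes may therefore be set too high, most of all for a long gene such as Adam22, and the order may not hold.

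The 300 bases around the start site of each gene, 250 before and 50 after, were read from RefSeq (GRCm38.p6, the assembly that mm10 names) and searched on both strands. Promoters of the 4 genes that hold a half-site of the glucocorticoid receptor element, AGAACA, are shown 5′ to 3′ on the gene's own strand because the mice differ in that receptor. The half-site, or its reverse complement, is in capitals. They are chr17:43568201-43568500 (+), chr6:83677808-83678107 (−), chr16:3718075-3718374 (−) and chr19:11081054-11081353 (−), in the order printed.
Pla2g7: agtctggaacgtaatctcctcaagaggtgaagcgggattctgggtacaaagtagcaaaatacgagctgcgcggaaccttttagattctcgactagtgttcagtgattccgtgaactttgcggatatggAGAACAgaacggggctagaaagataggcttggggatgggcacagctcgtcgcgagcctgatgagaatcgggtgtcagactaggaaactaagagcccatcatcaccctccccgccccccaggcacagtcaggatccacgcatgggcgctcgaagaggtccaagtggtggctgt
Cd207: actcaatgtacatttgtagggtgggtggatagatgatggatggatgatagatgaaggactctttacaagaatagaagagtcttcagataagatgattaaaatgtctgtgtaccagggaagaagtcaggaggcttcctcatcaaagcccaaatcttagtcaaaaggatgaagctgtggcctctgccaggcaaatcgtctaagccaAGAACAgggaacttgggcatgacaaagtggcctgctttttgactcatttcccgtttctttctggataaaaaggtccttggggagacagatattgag
Mefv: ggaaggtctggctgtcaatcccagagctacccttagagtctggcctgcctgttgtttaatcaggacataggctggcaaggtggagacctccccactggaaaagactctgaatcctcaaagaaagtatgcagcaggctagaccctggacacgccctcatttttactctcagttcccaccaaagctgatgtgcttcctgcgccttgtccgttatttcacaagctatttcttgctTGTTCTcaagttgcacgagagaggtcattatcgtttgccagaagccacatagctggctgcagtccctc
Ms4a8a: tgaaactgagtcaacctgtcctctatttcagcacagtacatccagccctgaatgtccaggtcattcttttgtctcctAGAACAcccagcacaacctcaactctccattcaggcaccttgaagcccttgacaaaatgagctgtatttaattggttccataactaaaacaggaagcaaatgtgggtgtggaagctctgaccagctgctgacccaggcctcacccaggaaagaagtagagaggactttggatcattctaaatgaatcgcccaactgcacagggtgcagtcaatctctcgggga

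Counted from the start site, the half-site began at base −122 in Pla2g7, −46 in Cd207, −18 in Mefv and −173 in Ms4a8a, on the opposite strand in Mefv. Of all 32851 RefSeq promoter windows 19.0% hold it, and the windows of Adam22 and Cxcl13 do not. None of the 6 windows holds the receptor's palindromic element, which 0.475% of all windows hold. Among motifs of myeloid and inflammatory factors, Cd207 holds 1 match to the PU.1 core GAGGAA (28.3% of all windows) and 1 to the AP-1 motif TGANTCA (7.81%), which Ms4a8a also holds. The C/EBP motif TTGCNNAA (10.8%) is in the Cxcl13 window alone among the 6, as is a TATA box, TATAAA, that begins at base −46 (13.6%). The RBPJ core TGGGAA (25.6%) is in those of Adam22, Mefv and Cxcl13, and the NF-kB motif (0.411%) in none. A match is a run of letters in this window and does not show binding.

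The 6 genes were also set against resident macrophage markers of the same library. The 26 Kupffer cell markers, which do not include the 6 genes, summed to 840.1 to 996.8 CPM in GRMAC and 725.4 to 934.5 CPM in GRflox. Of this sum 23.0% was Slc40a1, with a mean of 229 CPM in GRMAC and 180 CPM in GRflox. Nr1h3 had a mean of 109 CPM in GRMAC and 122 CPM in GRflox, and Id3 of 94.2 CPM and 66.3 CPM. In RNA of whole liver the levels of these markers cannot be assigned to Kupffer cells. The sums did not pass (two-sided exact permutation test, adjusted p = 0.175 over 11 cell types). The 26 markers had a median log2 fold change of 0.10, against 0.00103 for all genes tested. Of them 17 were positive and 9 negative, and none passed the threshold over all genes with edgeR. An unadjusted p under 0.05 was reached by 12 of the 26, and by 2051 or 16.3% of all genes tested, the share against which such counts are to be read in each list. Of these markers 2 (Cd5l and Irf7) were higher and 2 (Lyz2 and Nr1h3) lower in the authors' deposited table. Lyz2 is the gene that holds the Cre of LysM-Cre, which the GRMAC mice alone carry. In its level the Cre insertion and the missing receptor cannot be told apart. All 26 had counts, among them the defining genes Clec4f, at 98.0 ± 13.3 CPM in GRMAC and 93.4 ± 10.8 CPM in GRflox (SD, n = 5). Vsig4 was at 21.0 ± 3.47 CPM in GRMAC and 19.8 ± 3.11 CPM in GRflox, and Timd4 at 6.16 ± 0.391 CPM in GRMAC and 5.69 ± 0.527 CPM in GRflox. Other markers had larger log2 fold changes, among them Cd5l (0.55 ± 0.13, SE) and Marco (−0.85 ± 0.40).

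Pla2g7 stood at 0.0856% ± 0.0240 of that marker sum in GRMAC and 0.447% ± 0.0688 in GRflox (SD, n = 5). For Cd207 the share was 0.127% ± 0.0595 in GRMAC and 0.531% ± 0.206 in GRflox, and for Ms4a8a 0.115% ± 0.0125 in GRMAC and 0.257% ± 0.0551 in GRflox. For all 6 genes the shares in the GRMAC livers lay wholly below those in the GRflox livers, with log2 ratios of −1.16 (Ms4a8a) to −2.38 (Pla2g7). How many of all genes tested would lie apart by this measure is not given. The mean marker sum was 934.8 CPM in GRMAC and 841.3 CPM in GRflox, and a higher sum lowers the share of any gene. These shares rest on the same counts that chose the genes, and nothing is read from their lying apart. In RNA of whole liver, fewer cells of a type and less RNA per cell cannot be told apart.

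**Figure D3:**
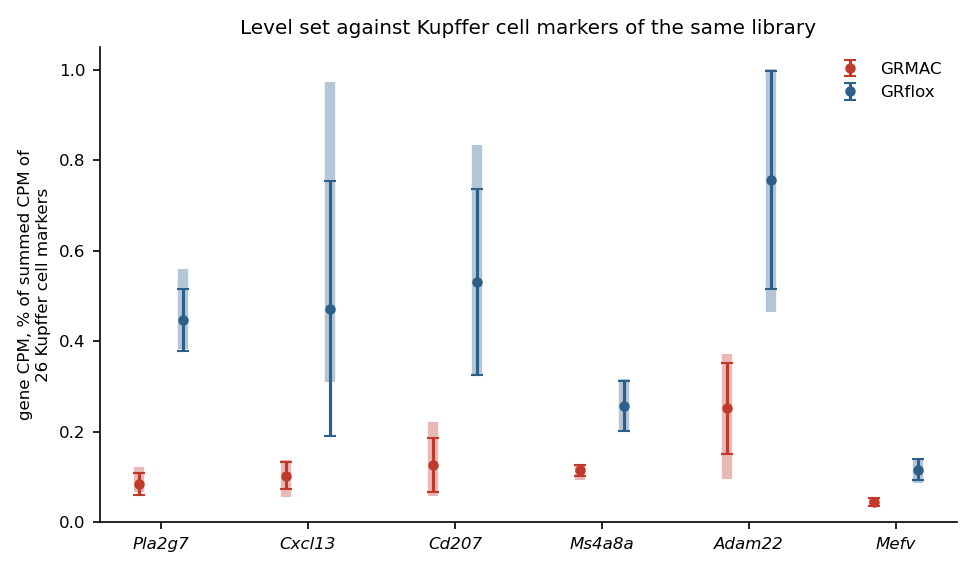
Level of each of the 6 genes as a percentage of the summed level of 26 Kupffer cell markers in the same library (vertical axis, from 0); circles are means, thin bars the SD and broad bars the range over 5 libraries. The GRMAC and GRflox ranges are apart for each gene, for Pla2g7 at means of 0.0856% in GRMAC and 0.447% in GRflox. The marker levels are those of whole liver and cannot be assigned to Kupffer cells.

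Other genes of each pathway or family were measured beside the 6, with levels as mean ± SD (n = 5) and log2 fold changes of GRMAC over GRflox ± SE. In the platelet-activating factor pathway, which makes, senses and degrades that lipid, none of 17 tested genes passed in either direction (5 at an unadjusted p under 0.05; median log2 fold change −0.03, 11 negative). Pafah2, Pafah1b2 and Pafah1b3 encode other catalytic proteins that degrade it, and Pafah1b1 the regulatory subunit of the intracellular enzyme. Pafah2 was at 107 ± 8.82 CPM in GRMAC and 118 ± 8.35 CPM in GRflox, a log2 fold change of −0.15 ± 0.07, and Pafah1b2 was at −0.03 ± 0.07, Pafah1b3 at 0.14 ± 0.24 and Pafah1b1 at −0.05 ± 0.05. Lpcat2, which makes the lipid in activated macrophages, had the lowest p, with 2.72 ± 0.302 CPM in GRMAC and 1.76 ± 0.229 CPM in GRflox (log2 fold change 0.62 ± 0.15, adjusted p = 0.0793 with edgeR). In the authors' deposited table Lpcat2 was called higher (adjusted p = 0.0161) and no gene of this pathway lower. The receptor gene Ptafr lay under the filter, with 46 counts in all GRMAC libraries and 52 in all GRflox libraries. The 23 measured genes of this pathway summed to 596.3 to 625.0 CPM in GRMAC and 630.3 to 680.1 CPM in GRflox. Of this sum 23.2% was Lpcat3. The sum is that of 1 of 7 pathway lists and is given after its value was seen, as a description.

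Of the CXCL13 axis and related lymphoid chemokine genes none of 14 tested passed (3 at an unadjusted p under 0.05; median −0.03, 8 negative). The receptor gene Cxcr5 was at 0.861 ± 0.344 CPM in GRMAC and 0.658 ± 0.255 CPM in GRflox (0.38 ± 0.32). Cxcl12, a chemokine made by stromal and endothelial cells, was at 496 ± 65.3 CPM in GRMAC and 420.1 ± 72.5 CPM in GRflox (0.24 ± 0.12). Ltbr, the lymphotoxin receptor that drives Cxcl13 in lymphoid stroma, was at −0.05 ± 0.06 and its ligand gene Ltb at −0.29 ± 0.31. Vcam1, an adhesion molecule of endothelium and macrophages, had the lowest p (9.71 ± 1.53 CPM in GRMAC, 16.1 ± 3.70 CPM in GRflox, −0.73 ± 0.15, adjusted p = 0.0649 with edgeR), and it passed without GRflox 4. In the authors' deposited table Vcam1 was called lower (adjusted p = 0.00131). B cell markers, the cells that CXCL13 draws, had a median of 0.38 over 7 tested genes (6 positive), and none passed with edgeR (3 at an unadjusted p under 0.05). The part of B cell markers in the Cxcl13 values was not tested.

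Of the C-type lectin receptors, the family of langerin, none of 23 tested passed (5 at an unadjusted p under 0.05), and 17 had positive and 6 negative log2 fold changes (median 0.13). Clec7a, the beta-glucan receptor dectin-1, had the lowest p and lay on the other side of Cd207, with 4.04 ± 0.869 CPM in GRMAC and 2.30 ± 0.460 CPM in GRflox (0.81 ± 0.18, adjusted p = 0.0701 with edgeR). In the authors' deposited table Clec7a and Clec12a were called higher (adjusted p = 0.00373 and 0.0135) and no lectin lower. Clec4f, the Kupffer cell lectin whose gene lies 15.1 kb from Cd207, had a log2 fold change of 0.07 ± 0.10.

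Of the MS4A family 8 of 16 genes in the table were tested and none passed (3 at an unadjusted p under 0.05). Of the 8 genes 4 had positive and 4 negative log2 fold changes (median 0.035). Ms4a7, expressed by macrophages derived from monocytes, had the lowest p and lay opposite to Ms4a8a, at 0.640 ± 0.218 CPM in GRMAC and 0.258 ± 0.187 CPM in GRflox (1.30 ± 0.42, adjusted p = 0.165 with edgeR). Ms4a6d was at −0.11 ± 0.21, and Ms4a6c lay on the side of Ms4a8a at −0.43 ± 0.17 (adjusted p = 0.216 with edgeR). Ms4a4a was too low to be tested, with 9 counts in all GRMAC libraries and 31 in all GRflox libraries. The MS4A genes beside Ms4a8a on chromosome 19 (Ms4a10, Ms4a13, Ms4a15 and Ms4a18) had at most 0.0077 CPM on average in either genotype.

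Of the ligands of ADAM22, Lgi1 had no count in any library, which allows at most 0.129 CPM in a library (3 counts). Lgi2 and Lgi3 lay under the filter, and Lgi4 was at 0.402 ± 0.130 CPM in GRMAC and 0.379 ± 0.0972 CPM in GRflox. None of the 16 tested ligands, partners and other ADAM genes passed (3 at an unadjusted p under 0.05; median 0.07). Dlg3, a scaffold protein gene, had the lowest p (0.28 ± 0.08, adjusted p = 0.125 with edgeR).

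Of the genes of pyrin and other inflammasomes none of 26 tested passed (4 at an unadjusted p under 0.05; median 0.09, 15 positive). The adaptor gene Pycard was at 0.29 ± 0.36, Casp1, the protease that matures IL-1β, at 0.35 ± 0.21, Nlrp3, another sensor, at −0.10 ± 0.20, and Il1b at 0.84 ± 0.68. Nlrp1b, a sensor activated by anthrax lethal toxin, had the lowest p, with 2.18 ± 0.578 CPM in GRMAC and 1.12 ± 0.223 CPM in GRflox (0.96 ± 0.22, adjusted p = 0.0766 with edgeR). In the authors' deposited table Nlrp1b, Aim2 and Il18 were called higher (adjusted p = 0.00697, 0.0392 and 0.0280), and no other gene of the list was called. Mefv lay opposite to all 3, while 11 of the 26 tested genes had negative log2 fold changes as it did. Among these was Naip1, at 0.625 ± 0.227 CPM in GRMAC and 1.02 ± 0.123 CPM in GRflox (−0.69 ± 0.26, adjusted p = 0.207 with edgeR).

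Among genes known to be induced by glucocorticoids in macrophages, Cd163 fell (log2 fold change −3.22 ± 0.19, adjusted p = 2.55e-05 with edgeR) and none of the other 19 tested passed (4 of 20 at an unadjusted p under 0.05). The median of the list was −0.19, with 14 negative and 6 positive. In the authors' deposited table the metallothionein genes Mt1 and Mt2 were higher, and Cd163 alone was lower. Of the summed level of this list 48.9% was Errfi1, with a mean of 1593 CPM in GRMAC and 1740 CPM in GRflox. In RNA of whole liver the levels of the listed genes cannot be assigned to macrophages. Whether the listed genes other than Cd163 changed in macrophages was therefore not tested.

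**Figure D4:**
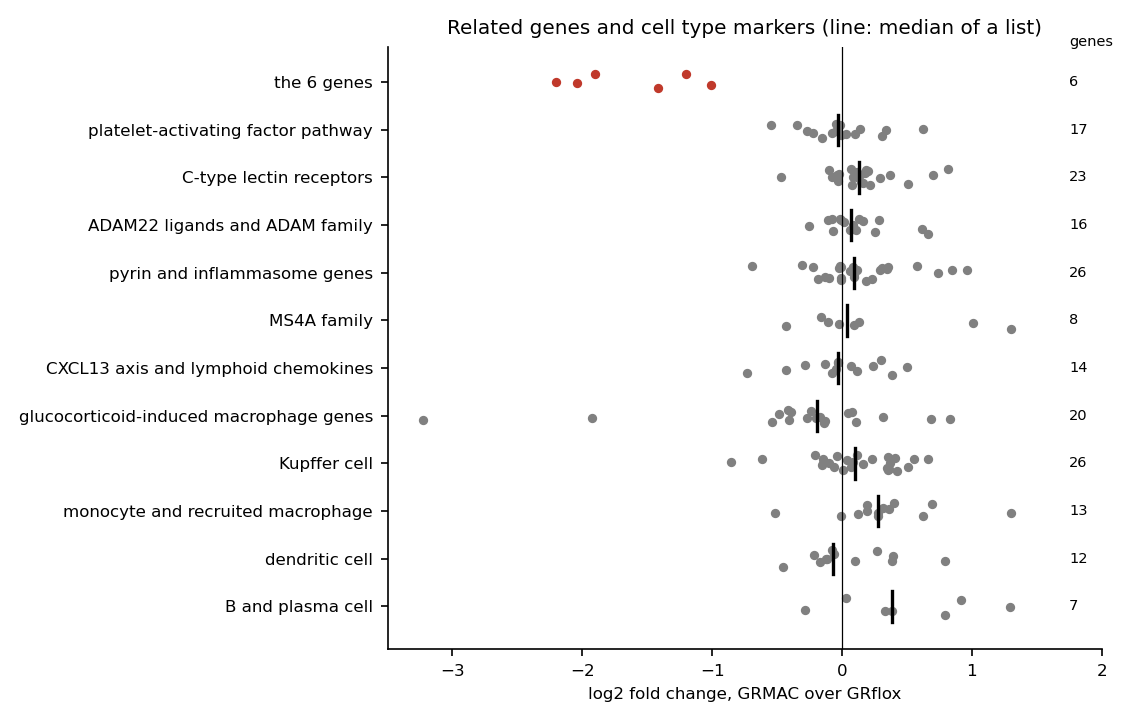
Log2 fold change of GRMAC over GRflox (horizontal axis) for the 6 genes (red) and for the tested genes of 11 lists (grey), without the 6 genes; vertical lines are the medians of the lists and the numbers are genes tested. List medians lie between −0.19 and 0.38, and the gene farthest to the left is Cd163 at −3.22.

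Other cell types were measured by their markers as well. The 13 tested monocyte and recruited macrophage markers had a median of 0.28 with none past the threshold (5 at an unadjusted p under 0.05). Their sum, 2266 to 2592 CPM in GRMAC and 1931 to 2181 CPM in GRflox, was higher (exact permutation test, adjusted p = 0.0437), but 96.7% of it was Fn1, which hepatocytes express. Without Fn1 the other 19 genes summed to 63.6 to 97.3 CPM in GRMAC and 60.8 to 72.0 CPM in GRflox. Dendritic cell markers summed to 436.4 to 451.6 CPM in GRMAC and 463.5 to 498.8 CPM in GRflox (adjusted p = 0.0437), of which 56.8% was Kmo, a gene that hepatocytes express too. Of the 12 tested dendritic cell genes 7 had negative and 5 positive log2 fold changes (median −0.07), and none passed with edgeR (4 at an unadjusted p under 0.05). Sirpa had the lowest p (0.38 ± 0.09, adjusted p = 0.0889 with edgeR), and in the authors' deposited table Sirpa and Batf3 were higher and Kmo lower. Neutrophil markers summed to 3.81 to 6.65 CPM in GRMAC and 3.31 to 5.29 CPM in GRflox. Of this sum 70.0% was Csf3r, and 2 of the 12 genes were tested. Peritoneal macrophage markers summed to 83.7 to 98.5 CPM in GRMAC and 85.2 to 99.97 CPM in GRflox, of which 55.5% was Prg4. Gata6, the transcription factor of peritoneal macrophages, had the lowest p of that list, with 16.6 ± 2.23 CPM in GRMAC and 21.9 ± 2.20 CPM in GRflox (−0.40 ± 0.10, adjusted p = 0.0895 with edgeR). Gata6 was called lower in the authors' deposited table (adjusted p = 0.0161). In RNA of whole liver its level cannot be assigned to peritoneal macrophages. The part of any of these cell types in the values of the 6 genes was not tested.

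The genes on either side of each of the 6 were measured too. Within 200 kb of the gene bodies lay 44 genes of the table, of which 26 were tested. None passed with edgeR (1 at an unadjusted p under 0.05), with log2 fold changes from −0.18 to 0.29 and a median of 0.02. The nearest tested genes were Adgrf5 (0.06 ± 0.17) and Slc25a27 (−0.18 ± 0.12) beside Pla2g7, Clec4f (0.07 ± 0.10) and Tex261 (−0.04 ± 0.06) beside Cd207, and Sri (0.03 ± 0.08) and Dbf4 (−0.03 ± 0.16) beside Adam22. The other genes had tested neighbours on 1 side alone, the nearest being Zfp263 (−0.03 ± 0.08) for Mefv, Ccdc86 (−0.02 ± 0.12) for Ms4a8a and Cnot6l (0.06 ± 0.05) for Cxcl13. A transcript that GENCODE lists as antisense to Pla2g7, 1700071M16Rik, overlaps that gene, and without a stated strand setting reads of the pair cannot be told apart.

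**Figure D5:**
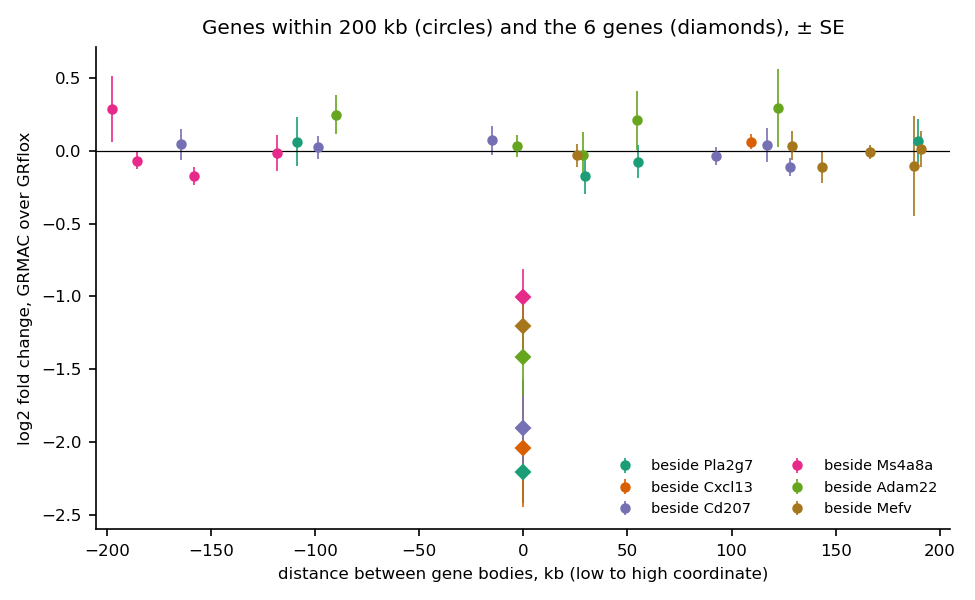
Log2 fold change of GRMAC over GRflox (vertical axis, bars are the SE) of the 26 tested genes within 200 kb of the 6 genes (circles, against the distance between gene bodies in kb) and of the 6 genes themselves (diamonds, at 0). The circles lie between −0.18 and 0.29 and the diamonds between −2.20 and −1.01.

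The patterns of the 6 genes over the 10 libraries were compared as a description. Whether they differ by more than counting error was not tested. Likeness was measured as the root mean square difference between log2(CPM + 0.5) profiles, each centred on its own mean, so a smaller value is a closer match, and genes near the pseudocount are drawn together by it. The profiles cover both genotypes, so the difference by which the 6 genes were chosen is part of each distance, and nothing is read from their closeness. Mefv and Ms4a8a were the closest pair (0.13), and Adam22 and Cxcl13 the farthest (0.79). Profiles that vary little also give small distances between them. The root mean square of a gene's own profile was 0.37 for Mefv and 0.41 for Ms4a8a, against 0.76 for Adam22 and 0.89 for Cxcl13. For Pla2g7 the closest of all tested genes were Cxcl13 (0.46), Ms4a8a (0.52) and Lipg (0.53). For Cxcl13 they were Pla2g7 (0.46), Marco (0.50), a scavenger receptor of macrophages, and Lyz2 (0.55), the lysozyme gene that holds the Cre of LysM-Cre.

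The library with the high Cxcl13 value was high for these as well. Marco was at 5.26, 2.46, 2.86, 6.42 and 2.47 CPM in GRMAC livers and at 5.62, 5.42, 6.05, 14.0 and 4.06 CPM in GRflox livers, with number 4 highest in both. Lyz2 was at 21.4, 20.1, 16.1, 29.7 and 18.02 CPM in GRMAC livers and at 30.5, 34.0, 28.0, 41.2 and 28.1 CPM in GRflox livers, again with number 4 highest in both. Pla2g7 was highest in number 4 of GRMAC and in number 5 of GRflox.

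For Cd207 the closest genes were Cd300e (0.49), an activating receptor of monocytes, Rassf2 (0.54) and Pla2g7 (0.54). For Ms4a8a they were Mefv (0.13), Pex11a (0.20) and Alox5ap (0.20), which encodes the activating protein of 5-lipoxygenase, and for Mefv they were Pex11a (0.12), Ms4a8a (0.13) and Ssc4d (0.13). For Adam22 they were Lipg (0.31), which encodes endothelial lipase, Mroh6 (0.32) and Prss53 (0.42). Among the closest genes that are not of the 6, Marco and Lyz2, both beside Cxcl13, were the ones on a macrophage marker list. Lipg was at 23.1, 24.2, 29.1, 14.6 and 41.4 CPM in GRMAC livers and at 82.4, 64.1, 72.9, 55.5 and 80.6 CPM in GRflox livers, and as with Adam22 number 4 was the lowest of each genotype. These data hold no sorted cells, so they do not show which liver cell the RNA of any of the 6 genes came from.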

How the data were processed

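Polyadenylated liver RNA was prepared with an NEBNext Ultra kit and sequenced in pairs, per the labels' protocols. The authors deposited whole-number read counts per gene, with 1 RefSeq transcript and its mm10 gene body per row. HISAT2 2.1.0, DESeq2 1.24.0 and mm10 are named, per the submitters' processing notes. How reads were assigned to genes (program, strand, introns) is not given in the sources used here. A second table deposited by the authors gives their own comparison, as log2 fold changes (knockout over control) and adjusted p-values. Its 10 columns of values per library were not used. Columns were matched to titles by genotype and number. The labels do not say that each library is a separate animal, so p-values may measure technical spread. Libraries of a group differed by more than sampling noise (chi-square per degree of freedom at least 17.1).

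Genes were filtered with filterByExpr (at least 10 counts at the median depth in 5 libraries), which left 12558 genes and took away 0.0348% of counts. Libraries were scaled by TMM and compared with edgeR 4.0.16 (quasi-likelihood, robust; R 4.3.3), adjusted by Benjamini-Hochberg over all genes, threshold 0.05. Standard errors were derived from each gene's F statistic. The scripts were tested on simulated data. Single values per library were compared by a two-sided exact permutation test over 252 assignments, whose smallest p is 0.00794. Gene lists without the 6 genes are described by counts and medians. Genes named were the 6, Nr3c1, Lyz2, Cd163, the called genes or the lowest p of each list, direct partners of the 6, the nearest tested neighbours within 200 kb and the 3 most alike genes. Aim2, Il18, Clec12a, Batf3, Marco, Id3, Naip1, Ms4a6c and the genes called in the authors' deposited table were named after their values were seen. So were the genes with the largest part of a list's sum. The 6 genes, the lists and the tests were chosen with earlier results of these data known. Alternatives were DESeq2 1.42.0, limma-voom (limma 3.58.1), other scaling, no filter, no robust estimation, the library number as a block and leaving out libraries. The precision of low counts is limited: a floor of 3 counts covers counting error only. The result of 1 marker gene is not reported here.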

Additional observations from a re-analysis of the deposited data

Results flagged for a closer look

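In each genotype, the 6 genes and the marker sums of 11 cell types were searched for a library that stood apart from the other 4. This gave 3 such libraries in 34 sets, and chance alone picks about 1 in 20 sets, or 1.7 here. Cxcl13 was at 8.79 CPM in GRflox 4, against 2.58 to 3.12 CPM in the other GRflox libraries. The summed neutrophil markers were at 6.65 CPM in GRMAC 4, against 3.81 to 4.31 CPM in the other GRMAC libraries. Over all libraries 70.0% of that sum was 1 gene, Csf3r. The summed sinusoidal endothelial markers were at 270 CPM in GRMAC 2, against 384 to 417 CPM in the other GRMAC libraries.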

How the results depend on the processing

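Each of the 6 genes kept its direction in all alternatives run, and no log2 fold change moved by more than the spread between replicates. Leaving out 1 library gave −2.41 to −2.09 for Pla2g7, −2.19 to −1.70 for Cd207, −1.60 to −1.21 for Adam22, −1.32 to −1.11 for Mefv, −1.11 to −0.93 for Ms4a8a and −2.20 to −1.54 for Cxcl13. The number of the 6 genes called was 1 with edgeR, 2 without a filter on low counts, 6 with DESeq2 and 3 without number 4 of both genotypes. It lay between 1 and 3 with 1 library left out (3 without GRflox 4, 2 without GRMAC 2 or GRMAC 4). Among all genes 22 were called, against 34 without a filter, 425 with DESeq2, 8 with limma-voom, 8 without robust estimation, 68 without number 4 of both genotypes, and 5 to 47 with 1 library left out. Of the list genes 1 was called, against 22 with DESeq2, 5 without number 4 of both genotypes, and 1 to 2 with 1 library left out. No neighbour was called in any alternative run (0 to 0 with 1 library left out). The cause was not tested. Deviations of same-numbered libraries over all genes tested correlated at −0.11 (number 4) to 0.17 (number 2) over 5 numbers. In each genotype 2 of 5 libraries correlated best with their own number, so the numbers are not taken to pair the mice. With the replicate number as a block 81 genes were called, with 4 of the 6 genes and 6 list genes among them. Shares against monocyte markers, also without Fn1 (chosen after seeing the data), had the same direction. Mefv, with 52 counts in GRMAC and 128 in GRflox, is the most limited by depth.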
